A study of Mus musculus with 9 samples.

Results

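Isca1 and 8 further genes that build and deliver mitochondrial iron-sulfur clusters (Isca2, Iscu, Nfs1, Lyrm4, Glrx5, Iba57, Bola3 and Nfu1) were followed in hippocampal RNA of lupus-prone mice. These 9 genes were taken by name from the 47224 genes of the count matrix that had a symbol, and all 9 passed the filter on low counts in every comparison. Isca1 was picked because its counts were far lower in both MRL/lpr groups than in the controls, so its difference from the controls is given as a description, without a p-value. The other 8 were picked for what they do, with earlier results of these data known. The libraries came from 3 MRL/mpj mice (labelled wild type, untreated), 3 untreated MRL/lpr mice and 3 treated with mesenchymal stem cells (MRL/lpr+MSC, of the MRL/lpr genotype), with 1 library per mouse and all mice 6 weeks of age. The lpr insertion of the MRL/lpr strain lies in Fas, a gene for a death receptor of lymphocytes, and lupus arises in this strain without any trigger; MRL/mpj is the control strain that lacks the insertion. The sample labels give the strain of all 9 mice as C57BL/6 while the genotype label names MRL. The sample titles name MRL-lpr for the MRL/lpr and MRL/lpr+MSC mice and only WT for the controls. The route and time of the stem cell treatment are not given in the sources used here.

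Iron-sulfur clusters are small cofactors of iron and sulfide that carry electrons or hold substrates in the respiratory chain, the citric acid cycle and DNA repair. In mitochondria, the desulfurase Nfs1 with its small partner Lyrm4 supplies sulfide, and a 2Fe-2S cluster is put together on the scaffold Iscu. Glrx5, a glutaredoxin, passes this cluster on. Isca1, Isca2 and Iba57 then act in making 4Fe-4S clusters, and Nfu1 and Bola3 deliver them late in the pathway to targets such as lipoate synthase. Inherited loss of Isca1, Nfu1 or Bola3 in people affects the brain, where energy demand is high.

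Totals ran from 19475804 to 26912031 counts per library, so that 3 counts of a gene equalled 0.105 to 0.163 CPM (counts per 1000000, scaled between libraries by the trimmed mean of M-values). Fas had 1.63 to 1.998 CPM in MRL/mpj, 1.32 to 2.28 in MRL/lpr and 0.997 to 1.82 in MRL/lpr+MSC libraries, and the groups overlapped. In a table of the study that pairs column names with values for 1999 genes, the columns named MRL/lpr matched the libraries that the sample labels call MRL/lpr+MSC in 100% of the compared genes with 50 counts or more (within 2%), and no library labelled MRL/lpr in more than 12.7%. Which of these names is right was not tested, so both groups are set against MRL/mpj side by side under their sample labels, and these 2 comparisons share their control libraries. Defining markers of neurons were present in all libraries, with a summed level of 5150 to 6295 CPM in MRL/mpj, 3548 to 4567 in MRL/lpr and 3939 to 6572 in MRL/lpr+MSC. Of these, 1 of 5 passed the test as lower in MRL/lpr and 0 of 5 passed in MRL/lpr+MSC. Markers of hippocampal neurons summed to 1273 to 1516, 831 to 1130 and 919 to 1202 CPM, and 2 of 6 (MRL/lpr) and 1 of 6 (MRL/lpr+MSC) passed the test as lower than MRL/mpj. Choroid plexus markers ranged from 163 to 698 CPM in MRL/mpj, 96.1 to 9455 in MRL/lpr and 99.5 to 4780 in MRL/lpr+MSC, and T and B cell markers from 0.43 to 0.90, 3.06 to 10.6 and 0.73 to 2.70 CPM, with 0 counts of Cd3e, Cd8a or Ms4a1 in some libraries. Of the T and B cell markers, 4 were tested in MRL/lpr and 3 passed as higher, and 0 were tested in MRL/lpr+MSC against MRL/mpj. Endothelial markers summed to 218 to 262, 267 to 283 and 284 to 320 CPM (1 of 5 passed as higher in MRL/lpr and 1 of 5 in MRL/lpr+MSC), microglial markers to 230 to 257, 185 to 234 and 183 to 210 CPM (2 of 5 and 1 of 5 passed as lower), and striatal markers to 64.7 to 75.7, 89.98 to 133 and 67.7 to 134 CPM (1 of 5 passed as higher in MRL/lpr). Over all genes tested, 4.97% passed as lower and 4.33% as higher in MRL/lpr, and 2.54% and 2.48% in MRL/lpr+MSC. No result about a cell type is read from the calls of these few markers. Mitochondrially encoded genes took 3.73% to 4.59% of counts in MRL/mpj, 3.17% to 3.64% in MRL/lpr and 3.78% to 3.88% in MRL/lpr+MSC. The part of these differences in the results below was not tested, and in bulk tissue fewer cells of a type and less RNA per cell cannot be told apart.

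Isca1 (ENSMUSG00000044792) lies on the minus strand of chromosome 13 at 59755409 to 59769810 (GRCm38) and has 4 exons. A second annotated protein-coding gene, AK157302 (ENSMUSG00000078139, plus strand of chromosome 13, 21495223 to 21497146), is an intronless copy of the Isca1 transcript 38.3 Mb away. The transcripts of 1942 and 1924 bases aligned over 1914 bases with 20 substitutions, no insertion or deletion and 99.0% identity. Of the substitutions, 1 fell in the 5′ untranslated region, 2 in the coding region and 17 in the 3′ untranslated region, and the coding regions had the same length of 390 bases with the stop codon. The first 81 coding bases are shown because they hold both coding differences, C31T and T36C, counted from 1 at the first coding base with the base of Isca1 first and capitals marking the differing bases. They span chr13:59769624-59769704 on the minus strand for Isca1 and chr13:21495306-21495386 on the plus strand for AK157302.
Isca1: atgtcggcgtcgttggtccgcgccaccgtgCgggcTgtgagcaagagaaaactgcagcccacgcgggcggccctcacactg
AK157302: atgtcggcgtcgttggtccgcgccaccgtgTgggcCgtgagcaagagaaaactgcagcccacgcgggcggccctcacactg
One of the 2 coding differences changes the encoded amino acid. The next 219 coding bases (82 to 300) are identical in both genes and are shown once, as an example of a stretch in which the sequence of a read gives no means to choose between the genes. In Isca1 they lie in several exons between chr13:59756945-59762795, and in AK157302 in a single run at chr13:21495387-21495605.
Isca1 and AK157302: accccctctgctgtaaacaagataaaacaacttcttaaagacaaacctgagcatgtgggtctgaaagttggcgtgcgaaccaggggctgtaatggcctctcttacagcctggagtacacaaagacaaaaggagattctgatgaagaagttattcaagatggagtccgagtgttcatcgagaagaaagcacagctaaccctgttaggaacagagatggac
The longest stretch without a difference had 378 bases. Of all 100-base windows of the alignment, 49.5% (898 of 1815) held no difference, and of all 150-base windows 37.0% (653 of 1765). How reads that match both places equally were counted is not given in the sources used here.

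**Figure D1:**
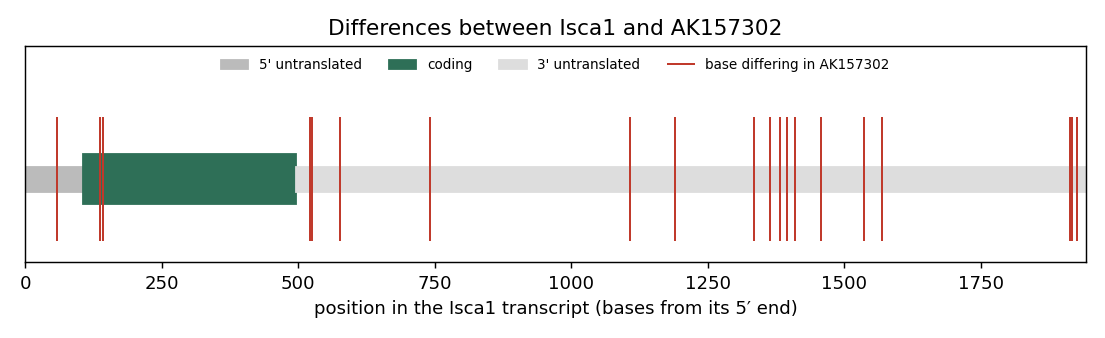
Position of the 20 substitutions (red lines) along the Isca1 transcript, in bases from its 5′ end, with the coding region drawn as the tall block and the untranslated regions as thin blocks. Most differences, 17, lie in the 3′ untranslated region, and 2 lie near the start of the coding region.

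Isca1 counts were lower in every MRL/lpr and MRL/lpr+MSC library than in every MRL/mpj library. Isca1 had 161, 153 and 162 CPM in the 3 MRL/mpj libraries, with a mean of 159 ± 5.00 (SD, n = 3). In the MRL/lpr libraries it had 57.3, 56.0 and 62.6 CPM (58.6 ± 3.50, SD, n = 3), and in the MRL/lpr+MSC libraries 67.4, 62.1 and 56.7 CPM (62.0 ± 5.35, SD, n = 3). The means were 36.9% and 39.0% of that of MRL/mpj, the groups did not overlap, and the spread within each group was small beside the gap. The fitted log2 fold change (limma voom) was -1.44 (SE 0.07, 95% interval -1.59 to -1.28, 2.71-fold lower) in MRL/lpr and -1.36 (SE 0.08, 95% interval -1.55 to -1.18, 2.57-fold lower) in MRL/lpr+MSC. For the background, 4.97% of the 16697 genes tested passed as lower in MRL/lpr than in MRL/mpj at an adjusted p under 0.05 and 4.33% as higher, and 2.38% and 3.41% were differentially expressed, meaning that they also changed at least 1.5-fold. Among the 16196 genes tested for MRL/lpr+MSC against MRL/mpj, 2.54% passed as lower and 2.48% as higher, and 1.5% and 1.93% were differentially expressed. Nothing is read from these shares about Isca1, which was picked on this difference.

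The counts of the copy moved the other way. AK157302 was given 15, 307 and 15 counts in the MRL/mpj libraries, or 0.75, 13.2 and 0.81 CPM. It was given 1449, 1185 and 1336 counts in the MRL/lpr libraries (50.9, 50.4 and 56.7 CPM) and 1209, 1263 and 1276 counts in the MRL/lpr+MSC libraries (63.4, 58.3 and 56.6 CPM). The groups did not overlap, and MRL/mpj replicate 2 stood apart from the other controls. Of the counts of both genes together, the copy held 0.463% to 7.91% in MRL/mpj, 47.0% to 47.5% in MRL/lpr and 48.4% to 49.96% in MRL/lpr+MSC. The highest control share, 7.91% in MRL/mpj replicate 2, had an exact 95% binomial interval of 7.08% to 8.80%, which covers counting error only.

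In MRL/lpr the difference from the MRL/mpj mean was -100.3 CPM for Isca1 and 47.7 CPM for the copy. In MRL/lpr+MSC the differences were -96.9 CPM for Isca1 and 54.5 CPM for the copy. Isca1 and AK157302 summed to 162, 166 and 163 CPM in MRL/mpj (164 ± 2.33, SD, n = 3). The sum was 108, 106 and 119 CPM in MRL/lpr (111 ± 7.01, SD, n = 3) and 131, 120 and 113 CPM in MRL/lpr+MSC (121 ± 8.83, SD, n = 3). Summing left the groups apart, at 67.9% and 74.2% of the MRL/mpj mean, where Isca1 alone stood at 36.9% and 39.0%. With the counts of both genes added before the fit, a choice made after seeing the data, the log2 fold change was -0.56 (95% interval -0.71 to -0.40, 1.47-fold lower) in MRL/lpr and -0.44 (95% interval -0.60 to -0.27, 1.35-fold lower) in MRL/lpr+MSC, both under the 1.5-fold threshold. How much of the Isca1 difference is a change of its transcript and how much is the assignment of reads between the copies cannot be told apart from these counts, nor can it be told from them whether AK157302 itself is transcribed.

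**Figure D2:**
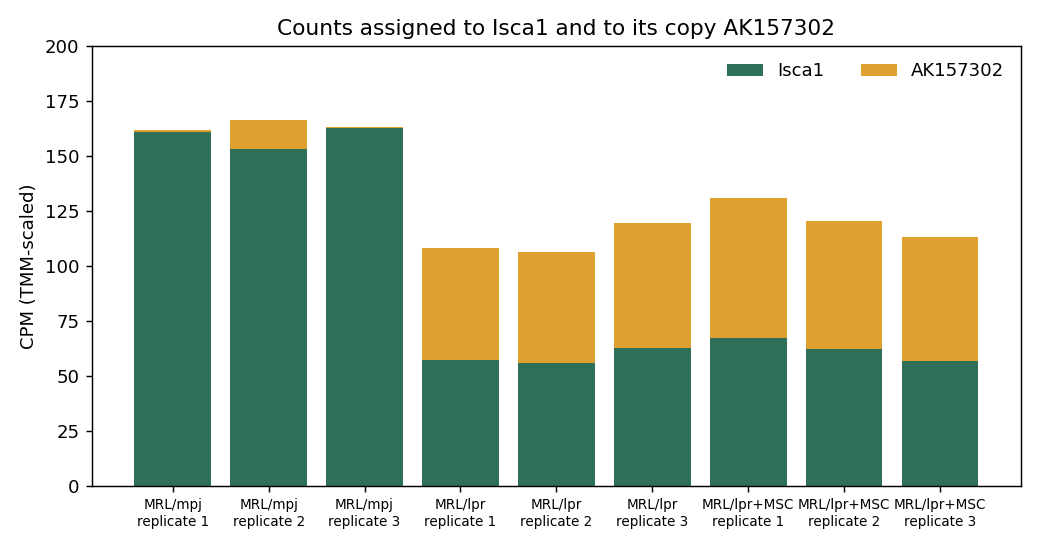
Counts assigned to Isca1 (green) and stacked on them those assigned to AK157302 (orange), in CPM on a linear axis from 0, for each of the 9 libraries. The summed bars lie at 162 to 166 CPM in MRL/mpj, 106 to 119 in MRL/lpr and 113 to 131 in MRL/lpr+MSC, while the orange part is near 0 in 2 of 3 controls and close to the green part in all other libraries.

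Other annotated genes overlap the Isca1 exons. Etohd2, an antisense transcript, covers all 187 bases of Isca1 exon 1 and had 11 to 24 counts per library, with log2 fold changes of -0.40 (adjusted p = 0.357, limma voom) in MRL/lpr and -0.74 (adjusted p = 0.180, limma voom) in MRL/lpr+MSC. The strand setting of the counting is not given in the sources used here, so reads of Etohd2 and of this exon cannot be told apart. Gm49354, on the strand of Isca1, shares bases with exons 2 and 3 and was not in the count matrix.

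Among the genes that act at the end of the pathway, Nfu1 was the one whose difference passed the test. Nfu1, a carrier that hands 4Fe-4S clusters to lipoate synthase, had 43.0, 37.1 and 40.2 CPM in MRL/mpj (40.1 ± 2.93, SD, n = 3). It had 26.7, 29.7 and 28.6 CPM in MRL/lpr (28.3 ± 1.49, SD, n = 3) and 33.8, 29.2 and 29.98 CPM in MRL/lpr+MSC (31.0 ± 2.48, SD, n = 3). The MRL/mpj libraries lay above all others. Nfu1 fell by 0.50 on the log2 scale in MRL/lpr (SE 0.09, 95% interval -0.70 to -0.29, 1.41-fold lower, adjusted p = 0.0227 by limma voom with Benjamini-Hochberg adjustment over all genes tested), short of the 1.5-fold threshold. In MRL/lpr+MSC its log2 fold change was -0.37 (SE 0.09, 95% interval -0.58 to -0.16, adjusted p = 0.0597, limma voom). The call in MRL/lpr was lost without MRL/mpj replicate 1 (adjusted p = 0.0913), 2 (0.0578) or 3 (0.103) or without MRL/lpr replicate 1 (0.0800), all by limma voom, and the MRL/lpr+MSC difference passed without MRL/lpr+MSC replicate 1 (adjusted p = 0.0216, limma voom). Nfu1 also has a processed pseudogene, Gm7859 on chromosome 15 (95.7% identity over 771 aligned bases), which was not in the count matrix. No counts of it could therefore be set beside those of Nfu1.

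Bola3, which works with Nfu1 in late delivery, had values on the other side of the controls. It had 19.1, 16.8 and 20.1 CPM in MRL/mpj, 21.5, 21.6 and 23.3 CPM in MRL/lpr and 21.2, 22.3 and 21.2 CPM in MRL/lpr+MSC. The controls lay below both other groups without overlap, but neither difference passed: the log2 fold change was 0.26 (SE 0.10, 95% interval 0.03 to 0.48, adjusted p = 0.130, limma voom) in MRL/lpr and 0.22 (SE 0.10, 95% interval -0.01 to 0.45, adjusted p = 0.233, limma voom) in MRL/lpr+MSC. Its pseudogenes Gm9506 (90.8% identity) and Gm16276 (94.3%) had 0 counts in all libraries and 2 to 12 counts per library.

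Isca2 and Iba57, which act beside Isca1 in making 4Fe-4S clusters, did not pass in either comparison. Isca2, the closest relative of Isca1 in the set, had 21.6, 21.6 and 22.8 CPM in MRL/mpj libraries, 21.2, 19.6 and 24.7 in MRL/lpr and 23.4, 21.5 and 23.4 in MRL/lpr+MSC. The groups overlapped, with log2 fold changes of -0.01 (95% interval -0.26 to 0.23, adjusted p = 0.942, limma voom) and 0.05 (95% interval -0.14 to 0.24, adjusted p = 0.763, limma voom). Iba57, a folate-binding partner of both, was the lowest of the 9 genes, with 9.59, 8.53 and 7.21 CPM in MRL/mpj libraries, 8.43, 9.35 and 8.45 in MRL/lpr and 9.71, 9.37 and 8.87 in MRL/lpr+MSC. Its groups overlapped as well, with log2 fold changes of 0.05 (95% interval -0.28 to 0.38, adjusted p = 0.838, limma voom) and 0.14 (95% interval -0.18 to 0.46, adjusted p = 0.588, limma voom).

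**Figure D3:**
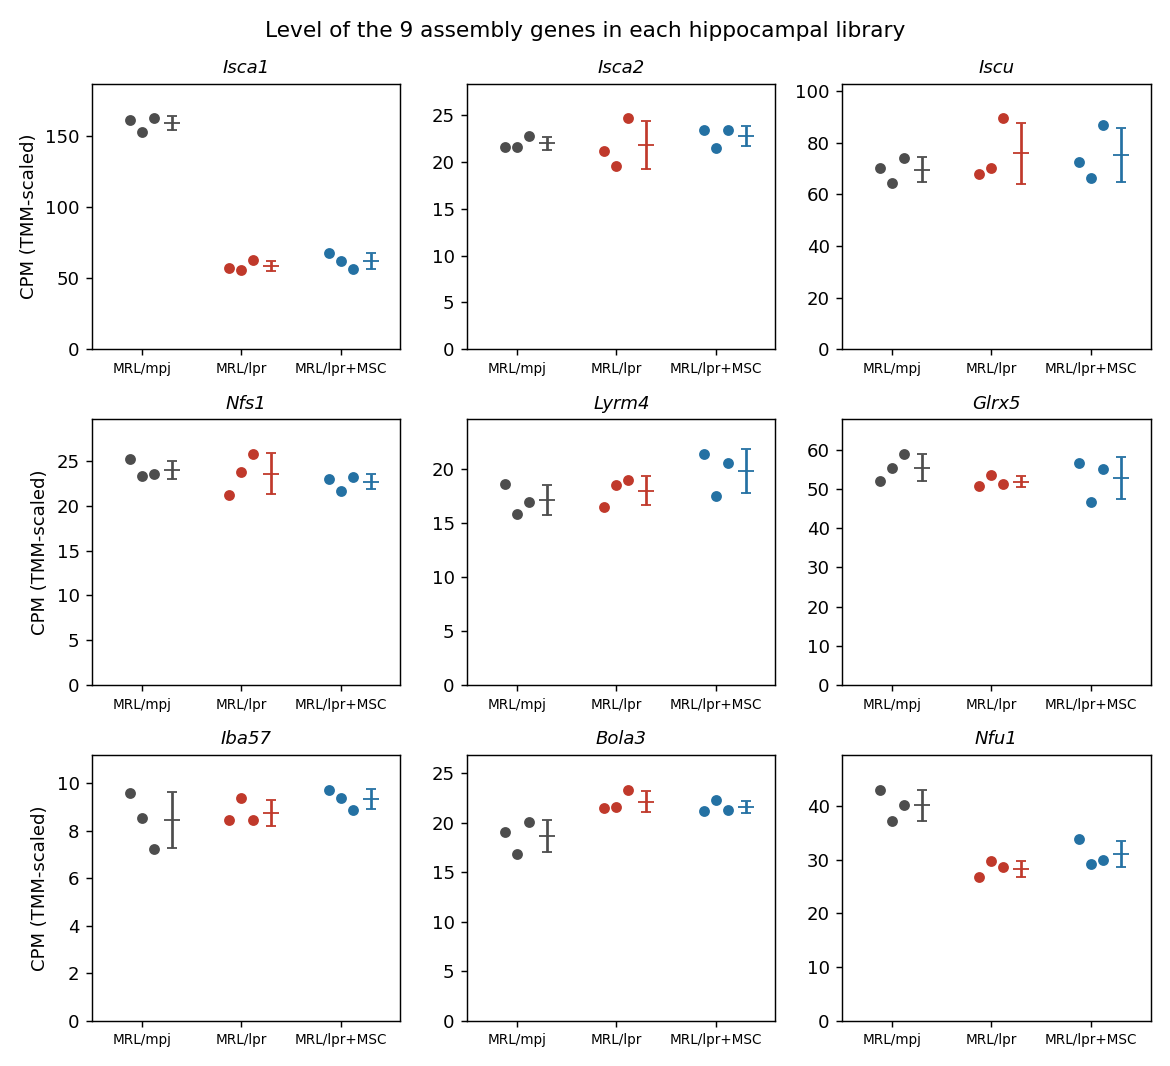
Level of each of the 9 genes in CPM, with 1 point per library, the group mean as a horizontal bar and 1 SD as error bars (n = 3), on axes that start at 0 and differ between panels. Isca1 separates MRL/mpj (153 to 162 CPM) from both other groups (56.0 to 67.4 CPM), Nfu1 does so with a smaller gap, and the points of Isca2, Iscu, Lyrm4, Glrx5 and Iba57 overlap.

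The genes of the early steps showed no difference that passed. Nfs1, the cysteine desulfurase, had 25.2, 23.4 and 23.5 CPM in MRL/mpj libraries, 21.2, 23.8 and 25.8 in MRL/lpr and 23.0, 21.7 and 23.2 in MRL/lpr+MSC. The MRL/lpr values straddled the controls and the MRL/lpr+MSC values lay just below them, with log2 fold changes of -0.03 (95% interval -0.27 to 0.20, adjusted p = 0.841, limma voom) and -0.09 (95% interval -0.27 to 0.10, adjusted p = 0.561, limma voom). Gm28036, which overlaps Nfs1, had 0 counts in all libraries. Lyrm4, the partner that holds the desulfurase stable, had 18.6, 15.9 and 16.9 CPM in MRL/mpj libraries, 16.5, 18.5 and 19.0 in MRL/lpr and 21.4, 17.5 and 20.5 in MRL/lpr+MSC. Its groups overlapped, at log2 fold changes of 0.07 (95% interval -0.18 to 0.32, adjusted p = 0.686, limma voom) and 0.21 (95% interval -0.05 to 0.47, adjusted p = 0.318, limma voom).

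Iscu, the scaffold, had 70.2, 64.3 and 74.2 CPM in MRL/mpj libraries, 68.0, 70.4 and 89.5 in MRL/lpr and 72.4, 66.3 and 86.8 in MRL/lpr+MSC. One library of each MRL/lpr group stood above the others, the groups overlapped, and the log2 fold changes were 0.12 (95% interval -0.16 to 0.40, adjusted p = 0.513, limma voom) and 0.10 (95% interval -0.16 to 0.36, adjusted p = 0.624, limma voom). An intronless copy of Iscu, Gm16437 on chromosome 19 (98.4% identity over 504 bases), had 0 to 4 counts per library. Glrx5, which moves the new cluster off the scaffold, had 52.1, 55.3 and 58.9 CPM in MRL/mpj libraries, 50.8, 53.5 and 51.4 in MRL/lpr and 56.7, 46.8 and 55.1 in MRL/lpr+MSC. Its groups overlapped, at log2 fold changes of -0.09 (95% interval -0.26 to 0.08, adjusted p = 0.436, limma voom) and -0.07 (95% interval -0.29 to 0.14, adjusted p = 0.681, limma voom).

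Of the 8 genes beside Isca1, 0 passed as higher and 1 (Nfu1) as lower in MRL/lpr by limma voom. In MRL/lpr+MSC 0 passed in either direction. An unadjusted p under 0.05 was reached by 2 of the 8 in MRL/lpr and 1 in MRL/lpr+MSC, beside 30.4% and 22.9% of all genes tested. Read against the background of 4.97% and 2.54% of genes that passed as lower, no result about the group is read from 1 of 8 and 0 of 8. Their median log2 fold change was 0.02 in MRL/lpr and 0.08 in MRL/lpr+MSC, beside 0.02 and 0.01 over all genes tested. Over the 9 libraries the coefficient of variation was 53.1% for Isca1 and 17.3% for Nfu1, and between 6.21% (Nfs1) and 11.97% (Iscu) for the other 7.

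**Figure D4:**
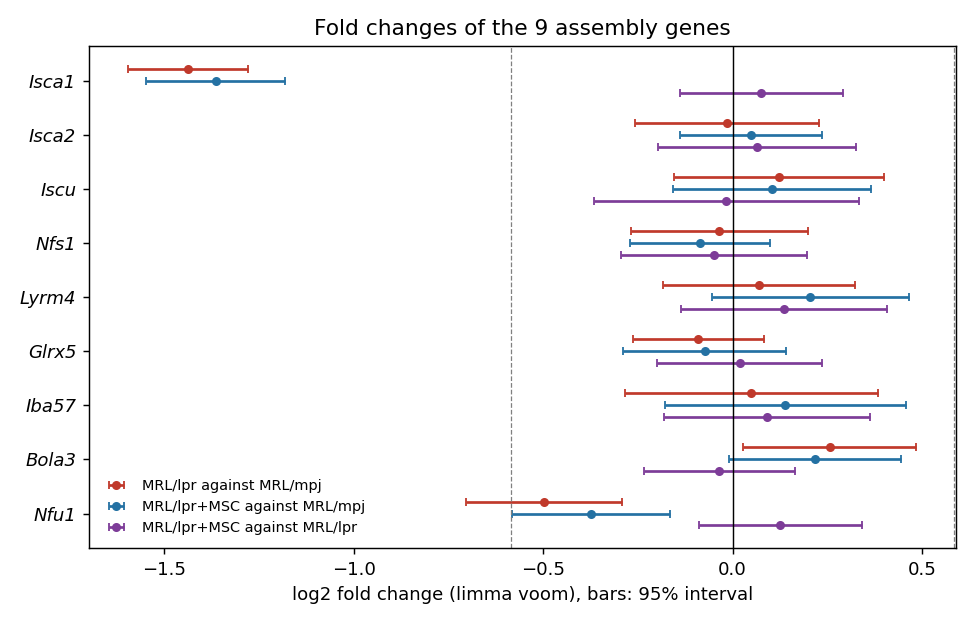
Log2 fold change of each of the 9 genes in the 3 comparisons by limma voom (points) with 95% intervals (bars); dashed lines mark a 1.5-fold change. Isca1 lies at -1.44 and -1.36 in the comparisons with MRL/mpj, Nfu1 at -0.50 and -0.37, and the intervals of the comparison between the MRL/lpr groups all span 0.

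No difference between the libraries of the MRL/lpr groups was detectable for any of the 9 genes. Between MRL/lpr+MSC and MRL/lpr libraries, 0% of the 16758 genes tested passed by limma voom, with 647 genes (3.86%) at an unadjusted p under 0.05 and 0 of the 9 genes among them. Isca1 had a log2 fold change of 0.08 (95% interval -0.14 to 0.29, adjusted p = 0.923, limma voom), and Nfu1 one of 0.13 (95% interval -0.09 to 0.34, adjusted p = 0.921, limma voom). Lyrm4 had the highest value, 0.14 (95% interval -0.14 to 0.41, adjusted p = 0.921, limma voom), and Nfs1 the lowest, -0.05 (95% interval -0.29 to 0.20). The summed counts of Isca1 and AK157302 gave 0.12 (95% interval -0.08 to 0.33).

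Levels per gene length as the authors took it, as FPKM (fragments per kilobase, scaled to the reads of the library), placed Isca1 below Glrx5 alone in the controls. In the other groups Isca1 lay below Glrx5, Iscu and Isca2. The counts and FPKM imply lengths of 4397 bases for Isca1, 954 for Glrx5 and 890 for Isca2. The transcripts aligned here have 1942, 2925 and 883 bases, so the order below holds only for the lengths behind the FPKM. In MRL/mpj the order of mean levels was Glrx5 at 59.8 FPKM, Isca1 at 37.2, Iscu at 32.1, Isca2 at 25.5, Lyrm4 at 11.4, Nfu1 at 8.35, Nfs1 at 6.68, Bola3 at 5.84 and Iba57 at 1.73, and the ranges of neighbours in this order did not overlap. In MRL/lpr, Isca1 stood at 13.6 FPKM (13.1 to 14.5), below Isca2 at 25.0 (22.7 to 28.3) and just above Lyrm4 at 11.8 (10.7 to 12.4). Nfu1, above Nfs1 and Bola3 in the controls, lay below both at 5.85 FPKM (5.47 to 6.17), and its range overlapped that of Nfs1 (5.79 to 7.09), which overlapped that of Bola3 (6.60 to 7.21). In MRL/lpr+MSC, Isca1 at 14.4 FPKM (13.2 to 15.7) and Lyrm4 at 13.02 (11.5 to 14.0) overlapped. Nfu1 (6.03 to 6.995) overlapped both Bola3 (6.58 to 6.91) and Nfs1 (5.98 to 6.41), which did not overlap each other. The Isca1 values rest on the same assignment of reads as its counts.

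The wider iron-sulfur pathway was read from 7 lists of 68 genes in all, of which 66 were tested (Ftmt had 0 counts in all libraries and Brip1 too few). By limma voom 0 of the 66 passed as higher and 3 as lower in MRL/lpr (background 4.33% and 4.97%). In MRL/lpr+MSC 2 passed as higher and 0 as lower (background 2.48% and 2.54%). An unadjusted p under 0.05 was reached by 12 and 6 of the 66, beside 30.4% and 22.9% of all genes tested. The median log2 fold change of the 66 was 0.04 and 0.03, beside 0.02 and 0.01 over all genes. Partners of mitochondrial assembly (14 genes) had medians of 0.08 and 0.10, and factors of cytosolic assembly (11 genes) 0.03 and 0.03. Among clients, mitochondrial 4Fe-4S proteins (8 genes) had medians of -0.08 and -0.02, 2Fe-2S proteins (5 genes) -0.09 and -0.07, and lipoylated proteins and lipoate transferases (6 genes) -0.10 and -0.01. Cytosolic and nuclear clients (14 tested) had medians of 0.07 and 0.02, and genes of iron handling (9 tested) 0.06 and 0.02. The shares that passed did not exceed the background in any direction but the rise in MRL/lpr+MSC, which rests on 2 genes.

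Fdxr was differentially expressed in MRL/lpr+MSC. It encodes ferredoxin reductase, the source of electrons for assembly, and had 11.2, 11.4 and 9.33 CPM in MRL/mpj libraries, 19.1, 14.2 and 14.9 in MRL/lpr and 17.9, 16.8 and 18.7 in MRL/lpr+MSC. The controls lay below all other libraries. Fdxr rose in MRL/lpr+MSC by a log2 fold change of 0.73 (SE 0.11, adjusted p = 0.0174, limma voom), and its value in MRL/lpr was 0.59 (SE 0.16, adjusted p = 0.0626, limma voom). The MRL/lpr+MSC call was lost without MRL/mpj replicate 1 (adjusted p = 0.0774), 2 (0.0671) or 3 (0.0798) or MRL/lpr+MSC replicate 3 (0.0676), and the MRL/lpr difference passed with all 9 libraries in one fit (0.0410) or without MRL/lpr replicate 2 (0.0370), all by limma voom.

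Dlat and Tfrc, named after their values were seen, passed as lower in MRL/lpr without reaching 1.5-fold. Dlat, a lipoylated subunit of pyruvate dehydrogenase, had 161, 140 and 178 CPM in the controls against 105, 114 and 108 in MRL/lpr, and the groups did not overlap. It fell by 0.54 on the log2 scale (SE 0.10, adjusted p = 0.0250, limma voom), lost without MRL/mpj replicate 1 (0.102) or 3 (0.0963) or MRL/lpr replicate 1 (0.0865). Tfrc, the transferrin receptor that brings iron into cells, had 139, 118 and 125 CPM in the controls against 93.6, 96.7 and 88.7 in MRL/lpr, again without overlap. It fell by 0.45 on the log2 scale (SE 0.08, adjusted p = 0.0248, limma voom), lost without MRL/mpj replicate 1 (0.0898), 2 (0.0636) or 3 (0.102) or MRL/lpr replicate 1 (0.0805). In MRL/lpr+MSC the log2 fold changes were -0.34 (adjusted p = 0.183) for Dlat and -0.20 (adjusted p = 0.303) for Tfrc by limma voom.

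**Figure D5:**
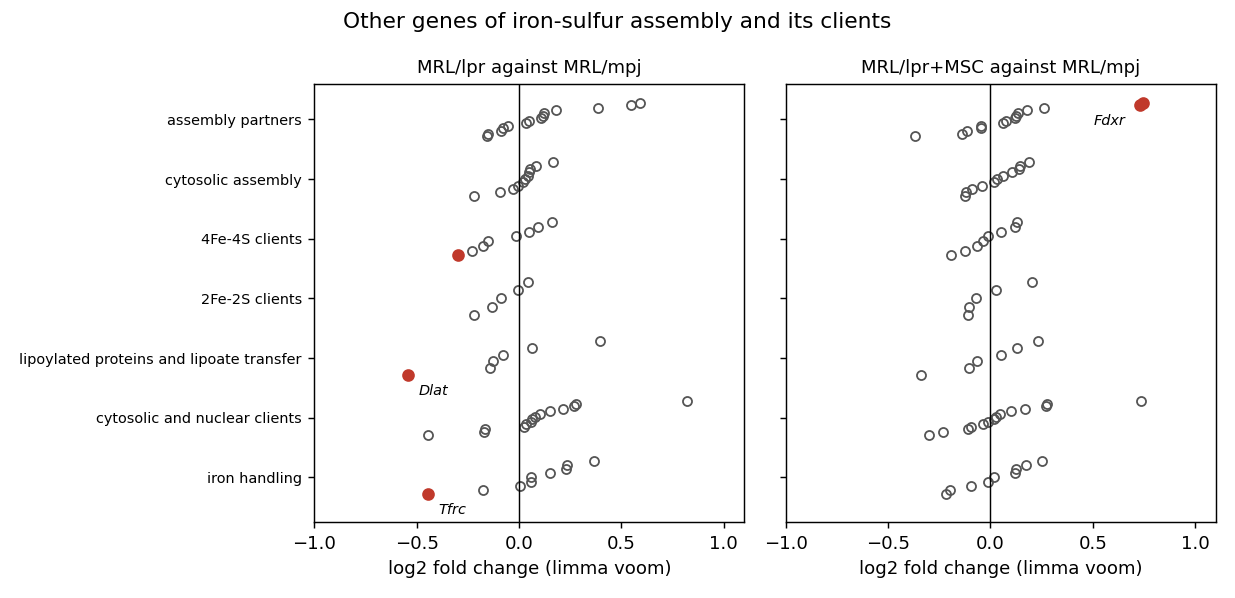
Log2 fold change by limma voom of the tested genes in 7 lists of iron-sulfur assembly, its clients and iron handling, in MRL/lpr (left) and MRL/lpr+MSC (right) against MRL/mpj; red filled points passed at an adjusted p under 0.05. Dlat and Tfrc are named at the left and Fdxr at the right, and most other points lie close to 0.

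Some neighbours of Isca1 on chromosome 13 also differed. Of 13 protein-coding genes that start within 1 Mb of Isca1, 12 were in the matrix and 8 were tested, and 4 passed in MRL/lpr (2 higher, 2 lower, background 4.33% and 4.97%) and 1 in MRL/lpr+MSC (higher, background 2.48%) by limma voom. The nearest one tested, 1700014D04Rik (chr13:59740842-59746752, start 23.1 kb away), had 6, 6 and 3 counts in MRL/mpj, 66, 58 and 58 in MRL/lpr and 41, 59 and 55 in MRL/lpr+MSC. It rose from near the counting floor without overlap, by log2 fold changes of 3.23 (SE 0.31, adjusted p = 0.00370, limma voom) in MRL/lpr and 3.24 (adjusted p = 0.00395, limma voom) in MRL/lpr+MSC. Tut7, an enzyme that adds uridines to RNA and starts 53.3 kb from Isca1, ranged from 58.4 to 61.4 CPM in the controls and from 39.9 to 47.0 in MRL/lpr and fell by 0.45 on the log2 scale (SE 0.08, adjusted p = 0.0239, limma voom), with -0.40 (adjusted p = 0.0512, limma voom) in MRL/lpr+MSC.

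Gas1, a growth-arrest protein 408 kb away, ranged from 6.51 to 12.8 CPM in the controls and from 19.8 to 24.9 in MRL/lpr and rose there by a log2 fold change of 1.16 (SE 0.24, adjusted p = 0.0338, limma voom), with 0.80 (adjusted p = 0.149, limma voom) in MRL/lpr+MSC. Dapk1, a death-associated kinase 832 kb away, ranged from 214 to 253 CPM in the controls and from 174 to 184 in MRL/lpr and fell by 0.34 on the log2 scale in MRL/lpr (SE 0.08, adjusted p = 0.0490, limma voom) and had -0.34 (adjusted p = 0.219, limma voom) in MRL/lpr+MSC. The calls of Tut7, Gas1 and Dapk1 in MRL/lpr were each lost without any one MRL/mpj replicate or without MRL/lpr replicate 1 (adjusted p from 0.0536 to 0.152), and that of Dapk1 also without MRL/lpr replicate 3 (0.0602) and with all 9 libraries in one fit (0.130), all by limma voom. The other neighbours tested, Agtpbp1, Naa35, Golm1 and Ntrk2, did not pass in MRL/lpr, at log2 fold changes of -0.33, -0.14, -0.43 and 0.24.

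Genes with levels very like those of Isca1 across the libraries, or nearly their mirror image, were of several kinds. Across the 14945 genes that averaged 1 CPM or more, Pearson's r with Isca1 over the 9 libraries, on log2(CPM + 1), was highest for Gm7292 (0.996), Gm4737 (0.996), Rps2-ps13 (0.995), Gm1821 (0.994) and Wbp11 (0.992). It was lowest for Gm9625 (-0.997), Gm8822 (-0.995), Zfp36l2 (-0.995), Rps2-ps10 (-0.993) and Rpl14-ps1 (-0.993), and 2 of the 5 highest and 4 of the 5 lowest are annotated as pseudogenes, a class that makes up 1.68% of the genes compared. All of these values describe the same 9 libraries in 3 groups, of which the controls lie on one side. Rps2-ps13, a processed pseudogene, had a mean of 333 CPM in MRL/mpj and 0.842 and 0.928 CPM in MRL/lpr and MRL/lpr+MSC, while Rpl14-ps1 had 3.14, 105 and 107 CPM. AK157302 had an r of -0.919. Of the 8 other assembly genes, Nfu1 was the most like Isca1 (r = 0.930) and Bola3 the most opposed (r = -0.800), and the rest lay between -0.432 (Lyrm4) and 0.421 (Glrx5).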

How the data were processed

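Hippocampal poly(A) RNA was sequenced by the authors. Their methods name STAR, HTSeq and mm10, and the submitters' processing notes TopHat2 and GRCm38. Deposited were raw counts per gene (47643 genes, 0 columns without a sample) and FPKM, which the authors computed from counts and gene length; FPKM served to compare levels between genes. For each comparison, genes with about 10 counts in at least 3 libraries and 15 in all were kept and scaled by the trimmed mean of M-values (trims of 30% and 5%). They were tested by limma voom (limma 3.58.1 in R 4.3.3, statmod 1.5.0) with robust moderation on the 6 libraries compared, and p-values were adjusted over all genes tested. A quasi-likelihood test had been planned, but the layout of the count matrix kept its unit from being registered as counts. Scripts were tested on simulated data. Symbols, positions and sequences came from the GENCODE annotation of GRCm38, copies from blastn 2.17.0 (at least 90% identity over 200 bases). The members and lists were chosen with earlier results of these data known. Named were all 9 members, list genes that were differentially expressed, neighbours within 1 Mb, copies of Isca1 and the 5 highest and 5 lowest correlations. Alternatives were other scaling, filters, all 9 libraries in one fit, a replicate block and leaving out each library. Replicates were separate mice. Results of some single genes of the lists are not reported here.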

Additional observations from a re-analysis of the deposited data

How the results depend on the processing

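Of 525 values under alternatives over 48 results, 455 kept their direction and their side of the threshold, 45 lost a call, 8 gained one, 15 changed sign and 2 moved. The 2 that moved were Isca1 with the counts of AK157302 added, a choice made after seeing the data, at -0.56 in MRL/lpr and -0.44 in MRL/lpr+MSC, and 0 of the 15 sign changes had passed the test. Leaving out 1 library at a time gave Isca1 log2 fold changes of -1.47 to -1.41 in MRL/lpr against MRL/mpj, -1.41 to -1.32 in MRL/lpr+MSC against MRL/mpj and 0.01 to 0.14 between the MRL/lpr groups, the first 2 as a description since Isca1 was picked on them. Sign changes on leaving out a library gave ranges in MRL/lpr against MRL/mpj of -0.090 to 0.053 for Isca2, -0.090 to 0.057 for Nfs1 and -0.041 to 0.14 for Iba57, and in MRL/lpr+MSC against MRL/mpj of -0.020 to 0.17 for Iscu. Between the MRL/lpr groups the ranges were -0.00313 to 0.156 for Isca2, -0.13 to 0.11 for Iscu, -0.13 to 0.019 for Nfs1, -0.035 to 0.10 for Glrx5 and -0.064 to 0.00526 for Bola3. Nfu1 ranged from -0.56 to -0.44 in MRL/lpr and from -0.46 to -0.32 in MRL/lpr+MSC. Differentially expressed genes over all genes numbered 967 in MRL/lpr and 556 in MRL/lpr+MSC, and these counts dropped to as few as 135 and 158 when MRL/mpj replicate 3 was left out and reached 1483 without MRL/lpr replicate 2 and 1346 with MRL/lpr+MSC replicate 1 removed. The cause of these changes was not tested. The planned Wald test on counts was not run. Depth limits the low genes: at a few counts per library, as for 1700014D04Rik in the controls, fold changes depend on the prior, and Ftmt and Brip1 were too low to test.

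With the replicate number as a block, Isca1 had -1.44, -1.36 and 0.08, while differentially expressed genes over all genes numbered 1127, 283 and 0. Under the block the adjusted p of Nfu1 was 0.0461 in MRL/lpr and 0.0854 in MRL/lpr+MSC, and that of Gas1 0.0569 and Dapk1 0.0552 in MRL/lpr and of Fdxr 0.0680 in MRL/lpr+MSC, by limma voom. Whether the numbers pair the libraries cannot be told from 3 libraries per group. Deviations of same-numbered libraries from their group means correlated at -0.009 to 0.114 (MRL/lpr and MRL/mpj), -0.094 to 0.145 (MRL/lpr+MSC and MRL/mpj) and -0.213 to 0.446 (both MRL/lpr groups). In all 3 comparisons the libraries numbered 2 and 3 correlated best with their own number while those numbered 1 did not.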
